A study of Mus musculus with 7 samples.

Results

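Spheroids grown from the mouse small bowel contain neural crest-derived cells and other cells side by side in the same culture. The comparison described here sets the crest-derived cells of such spheroids, sorted as tdT-positive, against the remaining cells of the same spheroids, sorted as tdT-negative. Both groups came from Wnt1-Cre;R26R-tdT mice, in which Wnt1 promoter-driven Cre turns on tdTomato, a red fluorescent protein, so that cells with a Wnt1-expressing ancestor carry the colour. The mice were 1 month old, and both groups carried the same alleles. Smooth muscle with its myenteric plexus was digested with collagenase and dispase, and the cells were grown for 10 days in medium with basic fibroblast growth factor (bFGF, 20 ng/mL), epidermal growth factor (EGF, 20 ng/mL) and heparin. Flow sorting by tdTomato then gave both populations. Each population is 1 RNA-sequencing library, made from about 50000 cells pooled from 3 mice (2 female and 1 male). These 2 libraries are part of a series of 7. Of 27179 genes counted in the series, the 13951 with at least 1 CPM (read counts scaled to the library's total) in either spheroid library were measured and are the members described here.

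Enteric neurons and enteric glia of the gut wall descend from the neural crest, whereas fibroblasts, smooth muscle, interstitial cells of Cajal, mesothelium, vessels and blood cells of the gut wall do not. Crest progenitors and glia are held in their state by SOX and FOXD transcription factors and receive growth signals through ErbB3, RET, endothelin and neurotrophin receptors. Gut mesenchyme is patterned by forkhead, GATA and NKX factors, makes most of the interstitial matrix, and is a source of growth factors for the enteric nervous system.

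The tdT-positive library held 64619332 reads assigned to genes and the tdT-negative library 64676244, within the 51885106 to 65301500 reads of the 7 libraries. At least 1 CPM was reached by 12901 genes in tdT-positive cells and by 13145 in tdT-negative cells. With 1 library per group there is no replicate check, and no test of any difference could be made. Intervals given are 95% exact conditional binomial intervals of the read ratio. They cover counting error only, and because reads were amplified and carry no molecular identifiers, they treat copies of 1 molecule as separate. Higher and lower are used of a gene where the ratio, tdT-positive over tdT-negative, was at least 4-fold with its interval wholly beyond 2-fold. Within 0.1 of the 4-fold line on the log2 scale, 52 genes lay beyond the line and 53 short of it on the tdT-positive side, and 59 beyond and 61 short of it on the tdT-negative side. Counts and medians of gene lists cover their measured members, and a median is also given over all members where adding those under 1 CPM moved it by over 1.5 times. CPM are not divided by transcript length, so levels are compared between libraries and not between genes. In sorted bulk cells, fewer cells of a type and less RNA per cell cannot be told apart.

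Across the 13951 measured genes, 927 (6.64%) were higher in tdT-positive cells and 1737 (12.5%) were lower, together 19.1%. The counts of each gene list below are to be read beside both shares, and a count near them does not set its list apart. The middle of the distribution was narrow, with a median log2 ratio of 0.01, quartiles of -0.64 and 0.54, and 66.5% of genes within 2-fold. Both tails were long: 253 of the higher genes and 473 of the lower genes differed by 32-fold or more. The called genes held unequal shares of the reads. Higher genes took 11.6% of the reads of tdT-positive cells and 0.890% of those of tdT-negative cells, while lower genes took 1.99% of the reads of tdT-positive cells and 25.8% of those of tdT-negative cells. Reads were also less concentrated in tdT-positive cells, where 1033 genes held the upper 50% of reads, against 740 genes in tdT-negative cells. Scaling by library totals in place of TMM (trimmed mean of M values) raised every ratio by about 0.24 on the log2 scale.

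**Figure D1:**
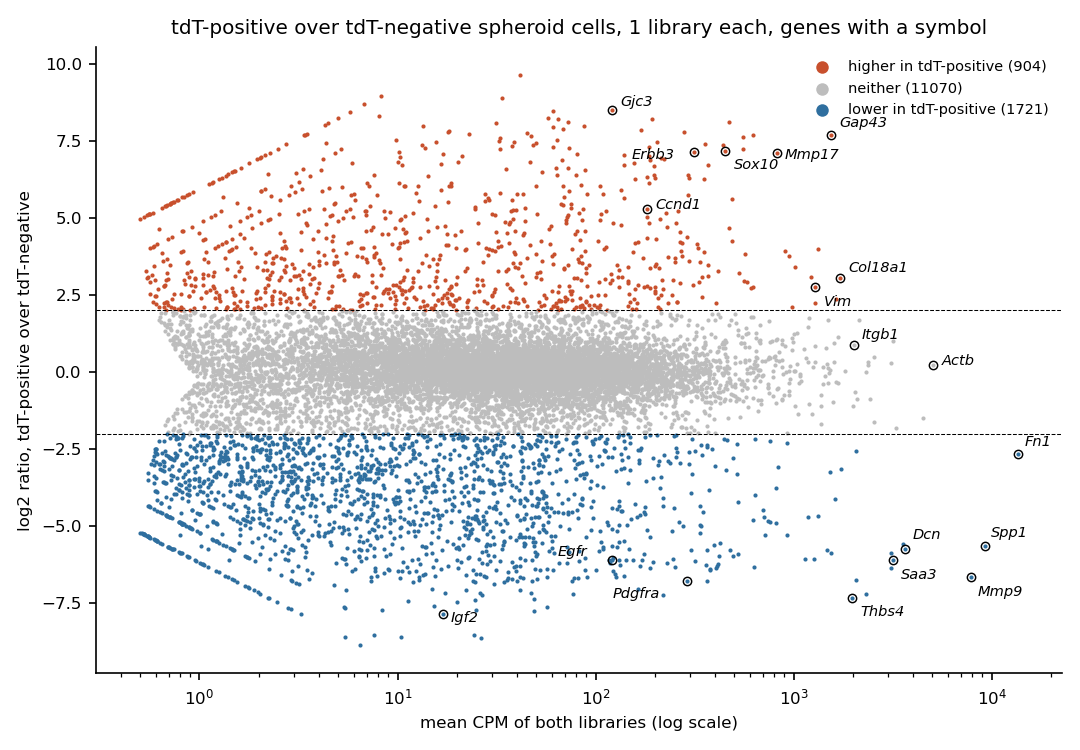
Log2 ratio of each measured gene with a symbol, tdT-positive over tdT-negative (y axis), against its mean CPM in both libraries (x axis, log scale). Each point is a gene, 904 higher in orange, 1721 lower in blue and 11070 in neither class in grey, and dashed lines mark 4-fold. Fn1, Spp1 and Mmp9 stand at the lower right, while Gap43, Col18a1 and Vim stand among the higher genes of high level.

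Marker genes were read beside the sort labels. The lists were chosen with earlier results of these data known, so they are no independent check of the sort. Of 16 measured crest and enteric glial markers, 15 were higher in tdT-positive cells and 0 lower, with a median log2 ratio of 7.15, and the list summed to 7908 CPM in tdT-positive cells against 163 CPM in tdT-negative cells. The 1 marker that passed in neither direction was Ednrb, the endothelin receptor of crest progenitors, with 44.4 CPM in tdT-positive cells and 47.2 CPM in tdT-negative cells. Fibroblast markers ran the other way, with 1 higher and 13 lower of 16, and sums of 4522 and 28959 CPM. Postn, the matricellular protein periostin, was the fibroblast marker on the tdT-positive side. Markers of each kind were also read in the other library: the 15 crest markers that passed had between 0.217% and 9.93% of their tdT-positive level in tdT-negative cells (median 0.581%), and the 13 fibroblast markers that passed had between 1.07% and 20.4% of their tdT-negative level in tdT-positive cells (median 3.16%). How much of this came from the purity of the sort was not tested.

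Markers of further cell types that passed were mostly lower in tdT-positive cells. All 7 measured mesothelial markers were lower in tdT-positive cells, with sums of 1.67 CPM in tdT-positive and 54.1 CPM in tdT-negative cells. Mast cell markers summed to 0.371 and 12.4 CPM, with 4 of 4 lower (median log2 ratio -5.51, which becomes -4.99 once unread members are set to a floor of 3 reads). Of the lymphocyte markers 5 of 6 were lower, with sums of 2.35 and 12.5 CPM. The mast cell sum in tdT-positive cells was under 1 CPM. Its members were thus measured through the tdT-negative library alone and could not come out higher. Mesothelial and lymphocyte members, with tdT-positive sums this low, were mostly measured in that way too. The counts of lower members in these lists therefore carry little beyond the sums. Ms4a1 of B cells and the proteases Cpa3 and Cma1 of mast cells had 0 reads in tdT-positive cells. The macrophage list summed to 59.3 CPM in tdT-positive cells and 142 CPM in tdT-negative cells, and only Lyz2, a lysozyme, passed, as lower. Endothelial markers summed to 92.9 and 214 CPM, with 7 of 12 lower, and smooth muscle markers to 286 and 475 CPM, with 4 of 11 lower and 1, Ckb, a creatine kinase, higher. Markers of interstitial cells of Cajal, the pacemaker cells of the gut, summed to 97.4 CPM in tdT-positive cells and 4449.6 CPM in tdT-negative cells, with 4 of 6 lower, among them the receptor Kit (-4.86). Thbs4, a thrombospondin also counted with the matrix genes, was in this list (-7.32). It was among the 12 largest losses in CPM of all genes that passed, so much of the tdT-negative sum came from this 1 gene. Pericyte markers were level in sum, with 886 and 867 CPM, since Mcam (4.53), an adhesion molecule that Schwann cells and vessels share, was higher while 5 of 7 were lower. No erythroid marker was measured. The part of these cells in the results below was not tested.

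Among genes that passed the size rule, the 12 largest gains in CPM in tdT-positive cells included growth cone, matrix and cytoskeletal genes. Gap43 (chr16:42248552-42340651, GRCm38), a membrane protein of growth cones that Schwann cell precursors also make, had 3094 CPM in tdT-positive cells and 12.6 CPM in tdT-negative cells (log2 ratio 7.69, interval 7.59 to 7.79). Col18a1, the basement membrane collagen from which endostatin is cut, had 3110.1 against 317 CPM (3.05). Mmp17, a membrane-anchored metalloprotease, had 1634 against 10.02 CPM (7.10). The others of the 12 largest were Adamts1 (3.99), a secreted protease that cuts proteoglycans, the latent TGF-beta binding protein Ltbp1 (2.25), Postn (2.37), matrilin Matn2 (3.10), vimentin Vim (2.75), the adhesion molecule Chl1 (3.77), the glypican Gpc1 (2.10), the protease inhibitor Serpina3n (3.40) and Azin1 (3.93), which holds ornithine decarboxylase active. Vim is the intermediate filament of mesenchymal cells as well as glia, and it was the tdT-positive cells that had more of it, with 2286 CPM against 287 CPM.

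The 12 largest losses in CPM among genes that passed were all of genes for secreted proteins. Fibronectin, Fn1 (chr1:71585473-71653280), had 4266 CPM in tdT-positive cells and 22972 CPM in tdT-negative cells, so it stayed among the well-read genes of both (-2.67). Osteopontin, Spp1 (chr5:104435111-104441053), a secreted phosphoprotein that binds integrins, had 429.8 CPM in tdT-positive cells and 18077 CPM in tdT-negative cells (-5.64). Mmp9 (chr2:164940326-164955850), the gelatinase that cuts denatured collagen, had 181 against 15546 CPM (-6.66). Further down the 12 were Saa3 (-6.10), an acute phase serum amyloid, Igfbp4 (-5.87), which binds insulin-like growth factors, the calcium-binding matrix protein Smoc2 (-7.21), and Spon2 (-5.86), a spondin of the matrix. The proteoglycans Dcn (-5.74) and Lum (-6.74), the collagen Col3a1 (-5.58) and the thrombospondins Thbs1 (-6.36) and Thbs4 (-7.32) completed them.

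The 12 highest ratios among well-read genes that passed belonged to genes of several kinds, some of them known from glia and crest. Wfdc18, a small secreted protein with a whey acidic protein domain, had 83.4 CPM in tdT-positive cells and 4 reads in tdT-negative cells (9.62, interval 8.80 to 12.03). Gjc3 (chr5:137950992-137963098), a connexin of myelinating glia, had 242 against 0.541 CPM (8.49). Ucn2, a peptide of the corticotropin-releasing factor family, had 128 against 0.340 CPM (8.20). Cmtm5, a membrane protein of myelinating glia, and Gpr37l1, a receptor of astrocytes and other glia, had log2 ratios of 8.88 and 8.21. 4 of the 12 highest had 0 reads in tdT-negative cells, so their ratios are bounds from a floor of 3 reads: Vmn1r181, named as a vomeronasal receptor, was at least 299.6-fold higher, the adhesion molecule Lsamp at least 247-fold, the postsynaptic scaffold Dlgap2 at least 210.2-fold and Csmd2 at least 183-fold. The transcription factors Foxd3 and Sox2 were also among the 12.

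The 12 lowest ratios likewise belonged to genes of several kinds, among them secreted factors, enzymes and receptors. Ccbe1, a matrix protein needed for lymphatic vessels, had 0.124 CPM in tdT-positive cells and 52.7 CPM in tdT-negative cells (-8.63). Ggt5, which cleaves glutathione-conjugated leukotrienes, had 0.124 against 48.8 CPM (-8.52). Igf2, the fetal insulin-like growth factor, had 0.139 against 33.7 CPM (-7.85). The glycosyltransferase Galnt14 (-7.71), the progesterone-degrading enzyme Akr1c18 (-7.70), the pantetheinase Vnn1 (-7.62), the receptor Gpr83 (-7.66, interval -11.75 to -6.84 from 2 reads in tdT-positive cells) and Gprin3 (-7.76) followed. Iglv1 and Iglc1, immunoglobulin light chain segments made by B lineage cells, were also here, with 0 reads and 1 read in tdT-positive cells against 12.9 and 15.2 CPM in tdT-negative cells, and reads of such segments can be shared between copies.

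Crest and glial transcription factors passed in both directions, and SOX factors are described first. Of the 11 measured SOX factors 5 were higher in tdT-positive cells and 2 lower. Sox10, Sox2 and Sox8 are crest and glial factors, and Sox8 had 5.82 against 0.526 CPM (3.16). Sox13 and Sox6 belong to the SOXD group and had 169 against 3.62 CPM (5.29) and 156 against 5.57 CPM (4.56). Sox5, of the same group, was within 2-fold, with 23.1 against 14.1 CPM, and so was Sox4, with 226 against 170.5 CPM. The lower SOX factors were Sox9, a factor of cartilage and of early crest, with 11.9 against 86.4 CPM (-3.10), and Sox7, a factor of vessels and endoderm (-3.88).

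Outside the SOX family, 11 of 29 factors listed for crest and glia were higher in tdT-positive cells and 7 lower. Olig1 and Olig2, basic helix-loop-helix factors of the oligodendrocyte lineage in the brain, had 62.7 against 0.170 CPM (8.07) and 9.64 against 0.0309 CPM (7.12, interval 6.18 to 11.09). Tfap2a, an early crest specifier, had 6.16 against 0.124 CPM (5.11), and Pou3f1, a factor of promyelinating Schwann cells, 12.8 against 0.634 CPM (4.03). Ets1 and Zeb2 were well read in both populations and still higher in tdT-positive cells, with 603 against 66.8 CPM (2.93) and 595 against 93.1 CPM (2.43). Zeb2 is required for the enteric nervous system to form. The 7 lower ones were Snai1 (-4.57) and Twist1 (-4.32), which drive epithelial-mesenchymal transition, Msx1 (-2.80) and Msx2 (-3.97), the Id protein Id2 (-2.31), and the ERK-induced factors Etv4 (-3.68) and Etv5 (-2.47). Factors of this list that are also known from mesenchyme were found on both sides, with Twist1 and Msx1 lower and Ets1 higher. Snai2, the other snail-family factor listed, was within 2-fold, with 52.6 against 46.4 CPM.

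Enteric neurogenic factors did not move together. 3 of 20 were higher and 9 lower (median log2 ratio -1.04, or 0 over all members). Tlx2, a homeobox factor of enteric neurons, had 2.34 CPM in tdT-positive cells and 0 reads in tdT-negative cells, at least 42.6-fold higher. Phox2a, another homeobox factor of autonomic neurons, went the other way with 0.155 against 5.98 CPM (-5.24). Several lower members are also known from mesenchyme, among them Hand1 (-6.62), Bnc2 (-5.10) and Tbx2 (-3.81).

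Mesenchymal and gut muscle factors were mostly lower in tdT-positive cells, with 3 higher and 26 lower of 43 (median log2 ratio -3.62, or -2.36 over all members). The forkhead factors Foxf1 and Foxf2, targets of epithelial hedgehog in gut mesenchyme, had 0.650 against 41.2 CPM (-6.16) and 1.10 against 60.02 CPM (-5.97). Nkx2-3, a homeobox factor of visceral mesoderm, had 0.495 against 35.3 CPM (-6.31), and Gata6 had 0.650 against 39.2 CPM (-6.09). Tcf21, a factor of visceral fibroblast precursors, had 0 reads in tdT-positive cells and 4.47 CPM in tdT-negative cells, at least 114-fold lower. Hic1, which marks quiescent mesenchymal progenitors, had a log2 ratio of -7.07, Prrx1 -4.72, Meis1 -4.08 and the mesothelial factor Wt1 -5.33. The 3 higher members were Heyl, a Notch target (4.20), Mef2c (3.32), a factor of muscle and of crest, and Ets1, and Runx1 was within 2-fold with 309.6 against 218 CPM.

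**Figure D2:**
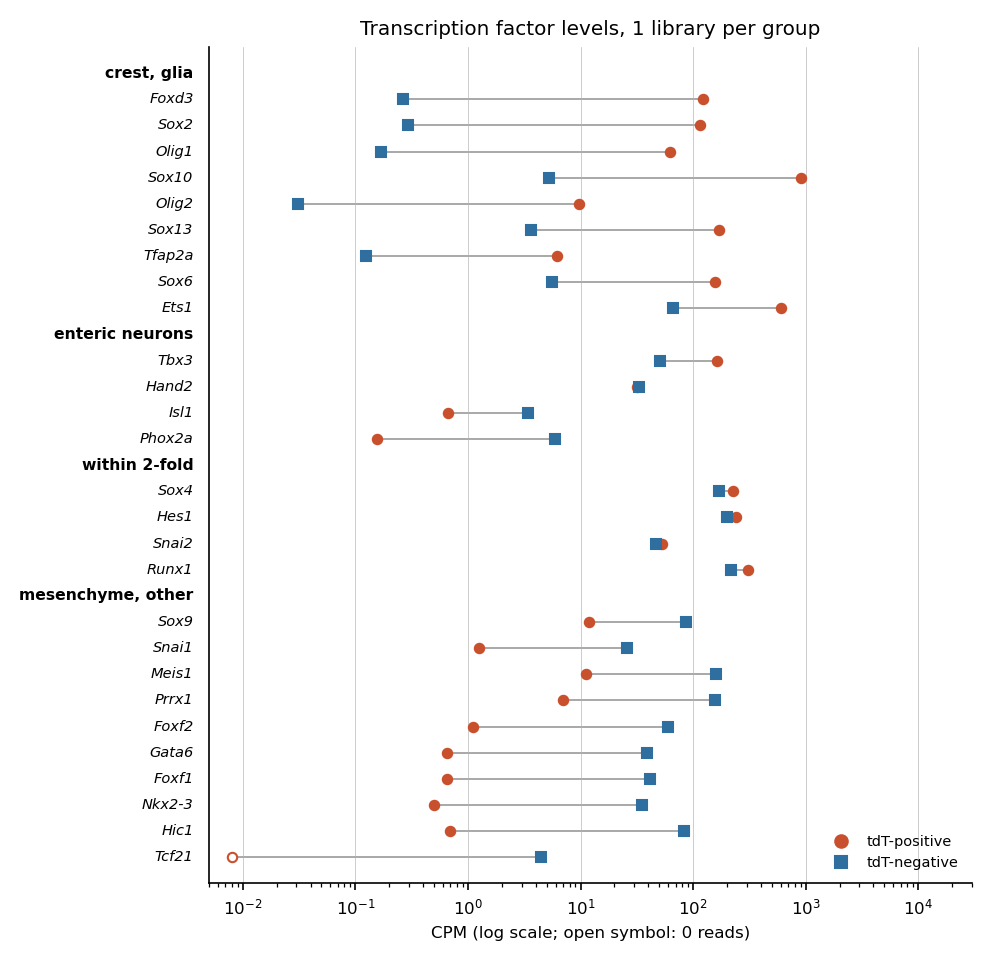
CPM of selected transcription factors (x axis, log scale) in tdT-positive cells (orange circles) and tdT-negative cells (blue squares), 1 library each, with an open symbol for 0 reads. The crest and glial factors drawn were all picked from higher genes and lie to the right in tdT-positive cells. The group of mesenchymal and other factors, which includes Sox9 and Snai1, lies to the left, and Sox4, Hes1, Snai2 and Runx1 nearly coincide. Lower members of the crest and glial list such as Twist1 and Msx1 are not drawn, and in that whole list 11 of 29 were higher and 7 lower.

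Hox genes record position along the body axis, and those that passed did so in opposite directions at different positions of the clusters. Another 11 measured Hox genes passed in neither direction, so this order covers only the genes that passed. 3 of 20 measured genes were higher in tdT-positive cells, and all were of groups 3 and 4: Hoxd3 with 10.4 against 0.572 CPM (3.87), Hoxd4 (4.04) and Hoxa4 (2.07). The 6 lower genes were of groups 6 to 9: Hoxc8 with 0.294 against 12.4 CPM (-5.49), Hoxc6 (-4.22), Hoxd8 (-3.24), Hoxb8 (-3.06), Hoxb9 (-2.98) and Hoxa7 (-2.34). Group 5 genes were close to equal, with log2 ratios of 0.63 for Hoxb5, 0.72 for Hoxc5 and -0.07 for Hoxa5.

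In the ErbB family, Erbb3 was the receptor that was higher in tdT-positive cells, and most ligands that passed were lower. Erbb3 (chr10:128567523-128589635), the kinase-impaired neuregulin receptor of crest and Schwann cells, had 625 CPM in tdT-positive cells and 3.76 CPM in tdT-negative cells (7.12, interval 6.95 to 7.32). Erbb2, its signalling partner, was similar in both with 89.6 and 65.9 CPM. Nrg1, the ligand of ERBB3, had 1.56 CPM in tdT-positive cells and 46.1 CPM in tdT-negative cells (-5.09). Egfr, the receptor for the EGF in the medium, had 4.10 CPM in tdT-positive cells and 238 CPM in tdT-negative cells (-6.09). The EGFR ligands epiregulin Ereg (-5.55), amphiregulin Areg (-5.23) and epigen Epgn (-5.36) were lower in tdT-positive cells too, whereas Tgfa (3.68) was higher and betacellulin Btc, at 64.2 against 21.6 CPM, passed in neither direction (1.33). In all 2 members were higher and 5 lower of 11.

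PDGF genes split by role. Ligands were higher in tdT-positive cells, with Pdgfa at 139 against 27.5 CPM (2.10), Pdgfb at 13.4 against 0.448 CPM (4.57) and Pdgfd at 2.60. Receptors were lower, with Pdgfrb at 107 against 531 CPM (-2.55), Pdgfra (-6.79), and the receptor-like Pdgfrl (-4.66). Pdgfc was the ligand on the other side and did not pass (-1.98).

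FGF genes were mostly on the tdT-negative side, with 2 higher and 11 lower of 23 (median log2 ratio -1.57, or -0.61 over all members). Fgfr1, which binds the bFGF of the medium, was present in both, with 171 CPM in tdT-positive cells and 377 CPM in tdT-negative cells (-1.38). Fgfr2 had 1.39 against 103 CPM (-6.42). Fgf10 and Fgf7, mesenchymal ligands that act on epithelium, had log2 ratios of -5.82 and -4.73, and Fgf1 -4.70. The feedback inhibitors of this pathway did not follow 1 direction, since Spry4 (-3.35) and Dusp5 (-3.29) were lower while Dusp6, at 413 against 228 CPM, and Spry2 passed in neither direction. Fgf5, which limits hair growth, had 20.1 against 0.216 CPM (6.12), and Fgf13, an intracellular family member that binds sodium channels, had 6.99 against 0.124 CPM (5.29).

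The insulin-like growth factor and vascular growth factor lists had no higher member. 5 of 13 IGF genes and 11 of 21 VEGF and angiopoietin genes were lower in tdT-positive cells. Igfbp5, an IGF binding protein, had 88.3 against 1183 CPM (-3.98), and Vegfa, the main angiogenic ligand, 38.2 against 354 CPM (-3.45). The co-receptors of VEGF and semaphorins differed from each other, since Nrp1 was similar with 123 and 100.3 CPM while Nrp2 had 20.4 against 509 CPM (-4.88).

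Receptors and ligands of neural survival factors lay on both sides. The low-affinity neurotrophin receptor and the co-receptors Gfra1 and Gfra3 were higher in tdT-positive cells, and the TRK receptors Ntrk2 and Ntrk3 and the co-receptor Gfra4 were lower. Ngfr had 373 CPM in tdT-positive cells and 1.99 CPM in tdT-negative cells (7.28). Ntrk2, the BDNF receptor, had 1.08 against 76.01 CPM (-6.33), and Ntrk3, the receptor for neurotrophin 3, 0.340 against 13.7 CPM (-5.44). The ligand Bdnf was higher, with 73.7 against 12.1 CPM (2.36). In the GDNF family, Gfra1, the GDNF co-receptor, had 684 against 123 CPM (2.23), and Gfra3 had 9.13 against 0.201 CPM (5.08). Artn, the ligand of GFRA3, was on the same side as its co-receptor with 376 against 27.8 CPM (3.52). Ret, their shared signalling receptor, had 22.3 CPM in tdT-positive cells and 12.7 CPM in tdT-negative cells and passed in neither direction (0.57). Gfra2, the neurturin co-receptor, had 49.8 against 132 CPM (-1.65), and Gfra4, the persephin co-receptor, had 0.418 against 18.3 CPM (-5.59). Of the endothelin receptors, Ednra, the form of mesenchyme and smooth muscle, had 10.2 against 748 CPM (-6.44), beside the near-equal Ednrb.

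Notch and hedgehog genes contained opposite members. Of 20 genes of the Notch pathway 6 were higher and 3 lower, or 5 and 3 when scaled by DESeq2 size factors. Lfng, the glycosyltransferase that modifies Notch receptors, had 49.8 against 1.45 CPM (4.83). The ligand Jag1 had 106 against 22.4 CPM and lay at the 4-fold line (2.002). Heyl, a target of the pathway, had 303 against 13.9 CPM, whereas the target Hes1 was level with 239.9 and 201 CPM. Dhh, the hedgehog ligand of Schwann cells, had 54.7 against 0.819 CPM (5.77). The co-receptors Boc (-4.99) and Cdon (-3.43) and the effector Gli2 (-3.53) were lower, and the receptor and target Ptch1 was within 2-fold (11.6 and 8.13 CPM).

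The retinal dehydrogenases, which make retinoic acid, were lower in tdT-positive cells. Aldh1a3 had 20.2 CPM in tdT-positive cells and 932 CPM in tdT-negative cells (-5.77), Aldh1a2 12.9 against 597 CPM (-5.77), Aldh1a1 had a log2 ratio of -2.62, and Rdh10, which makes their substrate, had 11.05 against 145 CPM (-3.95). Receptors were nearly level for Rara (50.5 and 45.5 CPM) and Rxra (44.3 and 34.99 CPM). Rxrg was the receptor that passed, with 4.60 against 0.263 CPM (3.75). Dhrs3, which reduces retinal back to retinol, was higher, with 31.2 against 5.63 CPM (2.22).

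Wnt genes were lower in tdT-positive cells more often than higher, with 18 lower and 4 higher of 39 (median log2 ratio -1.52), or 17 and 7 with library totals. Wnt5a, a ligand of the non-canonical branch, had 24.6 against 660.2 CPM (-4.99), and its receptor Ror2 1.10 against 100.2 CPM (-6.71). R-spondins and secreted antagonists were low in tdT-positive cells, with Rspo1 at -6.86, Rspo3 at -3.47, Sfrp1 at -3.41 and Dkk3 at -6.27. The higher members were the ligands Wnt16 (6.92, interval 5.98 to 10.89) and Wnt6 (2.58), the receptor Fzd6 (2.99), and Nkd2, an inhibitor of Dishevelled, with 1076 against 63.4 CPM (3.84). Axin2, a general target of canonical signalling, was near 1 CPM in both, with 1.11 and 1.24 CPM.

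BMP and TGF-beta genes gave 7 higher and 26 lower of 57 (median log2 ratio -1.52). The ligands Bmp4 and Bmp2 were opposite, with Bmp4 at 19.4 against 2.03 CPM (2.997) and Bmp2 at 10.6 against 279 CPM (-4.95). Several BMP antagonists were lower: gremlin Grem1 had 11.5 against 802 CPM (-6.36), and Chrdl2, Nog and Bmper had log2 ratios of -5.31, -4.98 and -5.54. Inhba, the activin subunit, had 13.3 against 257 CPM (-4.51). Latent TGF-beta binding proteins were divided, with Ltbp1 and Ltbp4 (2.53) higher and Ltbp2, at 3.34 against 434 CPM, lower (-7.25). The follistatin-like genes Fstl4 (6.33) and Fstl1 (-3.30) were opposite too, at 359 against 3.74 CPM and 111 against 921 CPM.

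**Figure D3:**
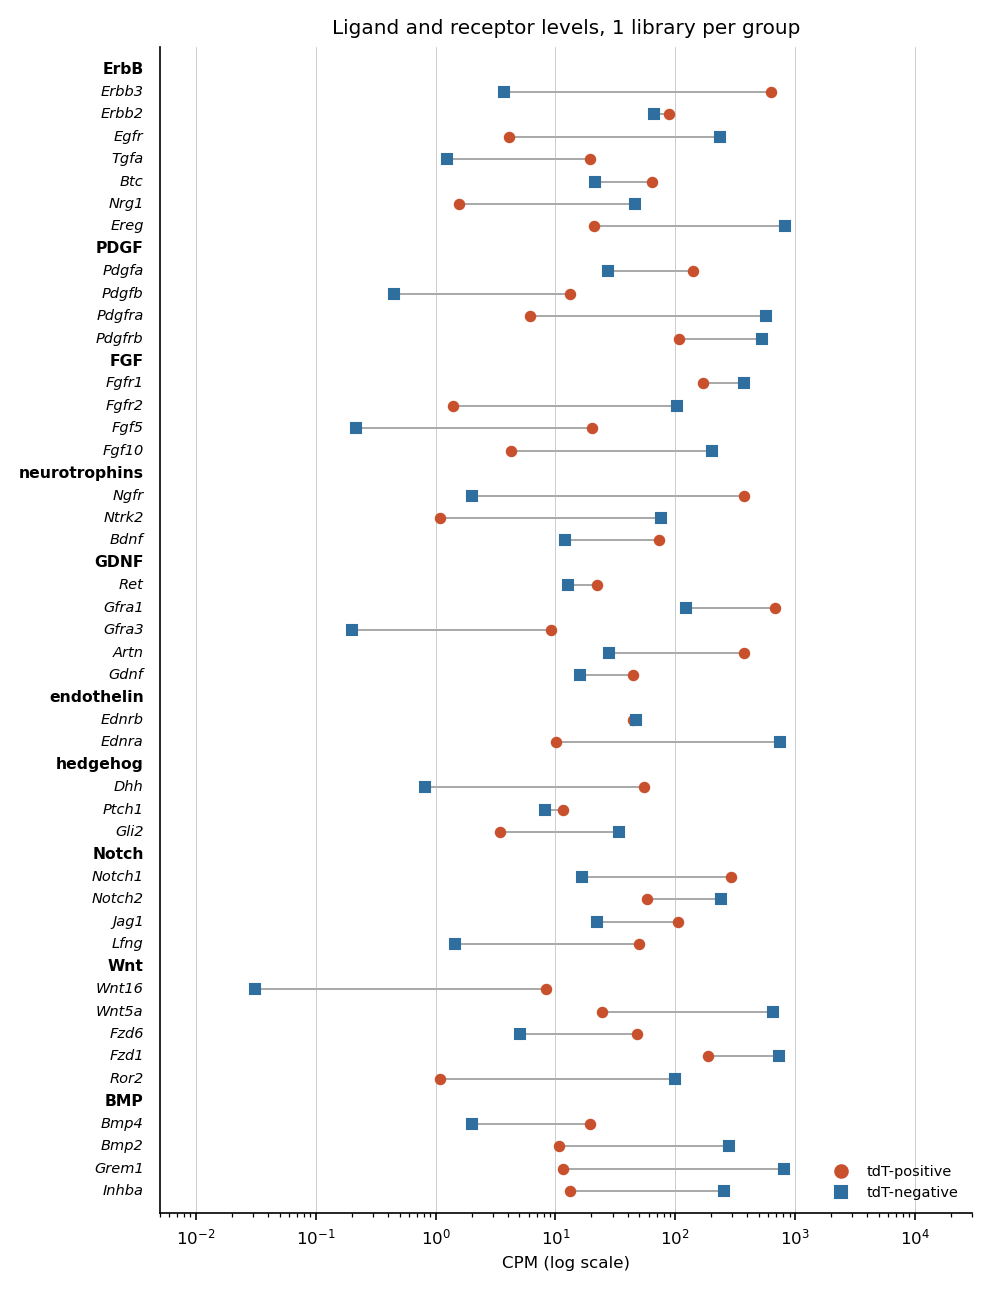
CPM of selected ligands and receptors (x axis, log scale) in tdT-positive cells (orange circles) and tdT-negative cells (blue squares), 1 library each, grouped by pathway. Within ErbB, PDGF and neurotrophin groups some members lie far right in tdT-positive cells and others far right in tdT-negative cells, while Erbb2, Ednrb and Ptch1 lie close together.

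Matrix genes had members in both directions, so that different collagens were higher in each population. Of 34 collagens, 6 were higher in tdT-positive cells and 15 lower, or 9 and 14 with library totals. The fibrillar collagens of interstitial matrix were lower, with Col1a1 at 119 against 2535 CPM (-4.66) and Col1a2 at 39.9 against 2244 CPM (-6.06). Fibrillar Col5a2 was not, with 1812 against 557 CPM (1.46), and fibrillar Col11a1 and Col27a1 were higher (4.26 and 2.03). Col20a1, a collagen associated with fibrils, had 311 against 2.37 CPM (6.78). Col28a1, a collagen of peripheral nerve, had 21.5 against 0.247 CPM (6.05), and Col9a3 36.9 against 0.448 CPM (6.03). The network chains Col4a1 and Col4a2 of basement membranes passed in neither direction, with log2 ratios of -1.37 and -1.02. The most extreme lower collagens were Col24a1 (-7.18), Col13a1 (-6.71) and Col25a1 (-6.63).

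Basement membrane genes and integrins also passed in both directions. Laminin chain Lama5 had 128 against 10.7 CPM (3.33), and agrin, Agrn, 1112 against 139 CPM (2.76). Lama1 (-6.77), Lama2 (-3.86) and Lamb1 (-4.21) were lower, and Nid1, which links laminin to collagen, was similar at 2755 and 1999 CPM. Itga6 and Itga7, integrin alpha chains that bind laminin, were higher, with Itga6 at 260.2 against 8.06 CPM (4.77) and Itga7 at 389 against 31.5 CPM (3.38). Itga4 (4.51) and the collagen-binding Itga1 (2.95) and Itga2 (2.12) were higher too. The fibronectin receptor chain Itga5 (-2.25), Itga8 (-4.38), the fibrillar collagen receptor chain Itga11 (-5.55) and the beta chains Itgb3 (-3.55) and Itgb5 (-2.17) were lower. Itgb1, the beta chain that pairs with most of these alpha chains, passed in neither direction, with 2754 against 1272 CPM (0.87). In all, 6 genes of the integrin list were higher and 10 lower of 25, and 1 of the higher ones, Itgb3bp, is named for binding an integrin and is a kinetochore protein.

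Matrix glycoproteins and proteoglycans gave 10 higher and 33 lower members of 72 (median log2 ratio -1.50). Beyond Matn2, Postn and Gpc1, the higher ones included Fbln5, an elastic fibre protein, with 152 against 5.75 CPM (4.48), and Cspg5, a proteoglycan known from brain (2.75). The lower ones included elastin Eln (-5.82), fibrillin Fbn1 with 18.3 against 975 CPM (-5.97), biglycan Bgn with 54.5 against 1808 CPM (-5.29), the calcification inhibitor Mgp (-6.06) and asporin Aspn (-7.05). Sparc, a collagen-binding matricellular protein, was similar in both, with 3686 and 2555 CPM.

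Proteases that remodel matrix passed in both directions. 9 of 62 were higher and 20 lower. Mmp15, a membrane-type metalloprotease, had 135 CPM in tdT-positive cells and 0.943 CPM in tdT-negative cells (6.88), and the aggrecanase Adamts5 112 against 3.79 CPM (4.64). Mmp14, the membrane-type collagenase, was level, with 1123 and 1029.6 CPM. Some secreted members were lower: the stromelysins Mmp3 and Mmp10 had 24.5 against 651 CPM (-4.97) and 7.23 against 271 CPM (-5.47), and the collagenase Mmp13 had 2.65 against 94.1 CPM (-5.38). Adamts1, a secreted protease too, was higher (3.99), so secreted proteases had no single direction. The protease inhibitor Timp1 was lower (-3.77) and Timp3 passed in neither direction (1.68), with 129.7 against 1493 CPM and 635 against 168 CPM.

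Mmp3, Mmp10 and Mmp13 stand near each other on chromosome 9 and were low in tdT-positive cells together, and their promoters are shown for that reason. RefSeq windows of 300 bases on GRCm38.p6, from 250 bases before to 50 after the start, were searched on both strands for the AP-1 letters TGANTCA and the SOX core letters ACAAAG or ACAATG. The windows shown were picked after values and letters were seen, to let the matches be read in context, and the genes are given on their own strand, 5′ to 3′, with matches in capitals. The Apod window belongs to a lipid-binding lipocalin of Schwann cells on the tdT-positive side (936 against 2.81 CPM, log2 ratio 8.12).
Mmp3, chr9:7445572-7445871, plus strand: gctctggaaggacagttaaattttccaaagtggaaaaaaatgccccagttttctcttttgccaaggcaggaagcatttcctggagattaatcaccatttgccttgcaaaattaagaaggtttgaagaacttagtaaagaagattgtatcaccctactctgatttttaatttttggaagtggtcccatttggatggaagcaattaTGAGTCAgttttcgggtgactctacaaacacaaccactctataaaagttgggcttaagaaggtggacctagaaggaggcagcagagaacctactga
Mmp10, chr9:7502092-7502391, plus strand: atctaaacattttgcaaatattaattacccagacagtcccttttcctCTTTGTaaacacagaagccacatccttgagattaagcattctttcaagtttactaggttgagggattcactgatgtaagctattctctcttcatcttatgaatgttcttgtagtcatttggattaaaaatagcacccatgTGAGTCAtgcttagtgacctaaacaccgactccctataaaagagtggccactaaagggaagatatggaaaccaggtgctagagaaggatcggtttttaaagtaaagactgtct
Mmp13, chr9:7272264-7272563, plus strand: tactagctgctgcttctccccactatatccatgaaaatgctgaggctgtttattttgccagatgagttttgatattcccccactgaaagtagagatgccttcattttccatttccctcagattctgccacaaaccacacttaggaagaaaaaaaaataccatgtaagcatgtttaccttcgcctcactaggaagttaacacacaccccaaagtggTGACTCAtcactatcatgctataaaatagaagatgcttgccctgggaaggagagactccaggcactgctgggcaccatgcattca
Apod, chr16:31314759-31315058, minus strand: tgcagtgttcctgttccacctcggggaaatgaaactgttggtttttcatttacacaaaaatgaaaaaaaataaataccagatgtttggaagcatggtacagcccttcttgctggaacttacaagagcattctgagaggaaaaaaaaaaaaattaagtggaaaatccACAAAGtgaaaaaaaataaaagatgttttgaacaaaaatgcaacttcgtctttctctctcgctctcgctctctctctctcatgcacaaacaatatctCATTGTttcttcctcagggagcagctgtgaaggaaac
The AP-1 letters begin at -46 in Mmp3, -63 in Mmp10 and -35 in Mmp13, counted from the start site, and Mmp10 also has SOX letters at -203. Apod has SOX letters at -84 and 14. A match of letters is a description and not a site. Of 10788 measured genes with a window, 4.97% held the AP-1 letters, against 7.03% of higher and 8.94% of lower genes, and 7.93% of all 27025 RefSeq windows did. The SOX letters were in 26.6% of higher genes, 21.9% of lower genes, 19.3% of all measured genes and 28.8% of all windows.

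Cell adhesion genes were more often higher than lower in tdT-positive cells. 24 of 58 neural adhesion molecules were higher and 10 lower (median log2 ratio 1.08, or 0 over all members), and 14 of 52 cadherins and protocadherins were higher and 8 lower. L1cam, an adhesion molecule of axons and Schwann cells, had 1109 CPM in tdT-positive cells and 6.14 CPM in tdT-negative cells (7.25), and Nrcam 589 against 6.28 CPM (6.30). Cadm1, Negr1, Ntm and Cadm2 had log2 ratios of 4.68, 5.06, 4.49 and 5.22. Classical cadherins differed by type, since N-cadherin, Cdh2, had 626 against 32.8 CPM (4.01) and the osteoblast cadherin Cdh11 had 12.8 against 817 CPM (-6.23). Pcdh20 had 559 against 2.12 CPM (7.78) and Cdh19, of Schwann cell precursors, 879 against 4.51 CPM (7.35). Of the clustered beta protocadherins, near-identical neighbours that can share reads, 4 of 20 were higher and 0 lower (median log2 ratio 1.07). Flrt2, which repels axons and has a role in heart mesenchyme, was lower (-5.68), and its relative Flrt3 was higher (4.83), at 3.20 against 141 CPM and 239 against 7.07 CPM.

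Axon guidance genes also had opposite members. 12 of 66 were higher and 23 lower. Sema3e and Sema3b, secreted semaphorins, had 582 against 5.88 CPM (6.38) and 397 against 4.21 CPM (6.31), whereas Sema3a had 12.8 against 228 CPM (-4.40). Plexin receptors were higher where they passed, with Plxnb3 at 736 against 5.91 CPM (6.71) and Plxnb1 at 3.17. Slit ligands and their receptors were lower, with Slit3 at 10.6 against 627 CPM (-6.12), Slit2 at -2.72 and Robo1 at -3.49, except for Slit1 (2.16) and for Robo2, which was within 2-fold. Netrin Ntn1 (-2.92) and the netrin receptors Unc5a (-3.65), Unc5b (-2.79) and Unc5c (-3.89) were lower. The ephrin receptors Epha5 (7.27) and Epha4 (-5.10) differed in direction, at 146 against 0.773 CPM and 3.59 against 105 CPM.

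Potassium channels were called often in both directions, with 16 higher and 19 lower of 47. Several Kv1 channels were higher, with Kcna2 at 121 against 0.387 CPM (7.95), Kcna6 at 513 against 11.7 CPM (5.21) and Kcna1 at 5.90. Kcna3 was the exception, with 13.4 against 55.7 CPM (-2.29). Kcnj10, the inward rectifier by which glia buffer potassium, had 4.57 CPM and 0 reads, at least 83.2-fold higher, and the leak channel Kcnk13 8.57 CPM and 0 reads, at least 156-fold higher. On the tdT-negative side were the large-conductance channel of smooth muscle Kcnma1, with 1.81 against 161 CPM (-6.69), the vascular Kcnj8 (-4.64), and Kcnk10 (-5.68). Of sodium and calcium channels, 6 were higher and 12 lower of 32. Scn7a, an atypical sodium channel of Schwann cells, had 57.04 against 0.990 CPM (5.57), and the sodium leak channel Nalcn 40.3 against 0.278 CPM (6.80). Cacna1c, the L-type calcium channel of muscle, and the T-type Cacna1g were lower, at -5.69 and -6.78.

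Transmitter receptors and release genes showed no single direction. Of 29 acetylcholine, serotonin, adrenergic and purine receptors, 8 were higher and 13 lower. Htr3a, the serotonin-gated channel, had 30.3 against 0.588 CPM (5.38), Adra2a 270.1 against 43.8 CPM (2.38), and the ganglionic nicotinic subunit Chrna3 2.31 CPM and 0 reads, at least 42.03-fold higher. The adenosine receptor Adora1 had 0.232 against 39.8 CPM (-7.47). Kainate receptors Grik3 (7.45) and Grik2 (3.09) and the AMPA subunit Gria4 (4.01) were the higher glutamate receptors. Synaptic vesicle genes were nearly even, with 14 higher and 13 lower of 47, or 16 and 10 with library totals. Synpr, with 312 against 3.45 CPM (6.25), Syt11 (3.77) and synaptophysin Syp (5.21) were higher. Synapsin Syn2 had 2.41 against 94.04 CPM (-5.51), dynamin Dnm1 4.97 against 175 CPM (-5.37) and the SNARE protein Snap25 2.01 against 47.3 CPM (-4.78), so these genes of neuronal release were higher in the tdT-negative cells.

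Neuronal markers as a list were higher in 9 and lower in 3 of 13 cases (median log2 ratio 4.79, which becomes 4.65 at that floor and 2.15 over all members). Apart from Gap43, the neuronal tubulin Tubb3 had 428 against 2.91 CPM (6.95), the microtubule protein Map2 64.7 against 0.959 CPM (5.79) and the ubiquitin hydrolase Uchl1 159.5 against 9.82 CPM (3.78). The neuropeptide galanin, Gal, had 61.6 against 2.69 CPM (4.26), whereas cholecystokinin, Cck, which neurons and enteroendocrine cells make, had 13.6 against 94.7 CPM (-3.04) and the enkephalin precursor Penk 70.9 against 211 CPM (-1.81). Slc5a7, the choline transporter of cholinergic neurons, was again on the tdT-negative side with 1.42 against 66.04 CPM (-5.75).

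Membrane genes of Schwann cells and other glia were mostly higher, with 26 of 34 higher and 3 lower (median log2 ratio 4.35). Lgi4, a secreted signal that Schwann cells need to myelinate, had 708 against 3.53 CPM (7.40), and Plekhb1 369 against 2.41 CPM. Adgrg6, the adhesion receptor that starts Schwann cell myelination, had 208 against 2.63 CPM (6.05). Cnp, an early myelin enzyme, had 629.9 against 45.1 CPM (3.56), while Prx, of mature myelin, was low and level with 4.38 and 3.77 CPM. Fa2h, which makes hydroxylated myelin lipids, was lower with 0.851 against 55.5 CPM (-6.22). The glial glutamate transporter Slc1a3 was lower too, with 1.19 against 81.9 CPM (-6.31). Aqp1, a water channel of enteric glia and vessels, had 100.4 against 6.97 CPM (3.60), and glutamine synthetase, Glul, was level with 14.2 and 10.4 CPM.

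Junction genes were mostly lower in tdT-positive cells, with Gjc3, Tjp3 (3.98) and Cldn23 (2.79) as the higher members. 7 of 10 connexins and pannexins were lower, among them Gja1, the most widely used connexin, with 34.8 against 197 CPM (-2.74), and 6 of 12 claudin and tight junction genes, among them F11r (-4.70) and Cldn1 (-3.32). Intermediate filaments differed by type: Gfap, the filament of glia, had 1108 against 4.76 CPM (7.61) and nestin, Nes, 496 against 14.7 CPM (4.83), whereas the muscle filament desmin, Des, had 6.24 against 113 CPM (-4.41) and the keratins Krt8 (-5.62) and Krt18 (-5.96) were lower. Actb, cytoplasmic actin, was level with 5896 and 4236 CPM, as was filamin Flna with 1999.8 and 1635 CPM. Muscle forms were lower, with Myh11 at -5.77, Tpm2 at -4.33 and Synpo2 at -6.45, although the smooth muscle actin Acta2 was low in both with 7.61 and 21.3 CPM and did not pass (-1.72).

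Inflammatory signalling genes were mostly lower in tdT-positive cells. 49 of 80 interleukin, colony-stimulating and tumour necrosis factor family genes were lower in tdT-positive cells and 3 higher (median log2 ratio -2.80, or -1.52 over all members). Il6 had 16.96 CPM in tdT-positive cells and 334 CPM in tdT-negative cells (-4.54), and Il11, of the same family, 18.1 against 297 CPM (-4.27). Csf1, the macrophage growth factor, had 71.6 against 1338 CPM (-4.47). Il1rn, the antagonist of interleukin 1, had 2.69 against 163 CPM (-6.14). The shared receptor chain Il6st was similar with 809 and 505 CPM, while Osmr, which pairs with it, had 15.8 against 474 CPM (-5.15). The higher members were the interleukin 1 receptor chain Il1rap, with 941 against 41.9 CPM (4.25), Il34 (2.34), a ligand of the CSF1 receptor, and Il21 (2.55).

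Chemokines gave 2 higher and 14 lower of 29. The monocyte chemokines Ccl2 and Ccl7 had 204 against 1459 CPM (-3.08) and 18.5 against 772 CPM (-5.62), and the eosinophil chemokine Ccl11 3.99 against 261 CPM (-6.26). Cx3cl1, fractalkine, had 7.37 against 496 CPM (-6.31). The interferon-induced Cxcl10 was level with 139 and 144 CPM, and Cxcl14 (3.26) and Cxcl2 (2.63) were the higher chemokines. Of secreted proteins of inflammation outside these lists, all picked after their values were seen, lipocalin 2, Lcn2, was lower at 58.8 against 1463 CPM (-4.88), ceruloplasmin, Cp, at 18.3 against 1245 CPM (-6.33), and the protease inhibitor Slpi at 104 against 2265 CPM (-4.69). Serpina3n, an acute phase serpin, was higher (3.40).

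Complement and coagulation genes were lower in 22 and higher in 2 of 33 cases (median log2 ratio -3.67, or -1.90 over all members). The first component proteases C1ra and C1s1 had 2.09 against 179 CPM (-6.64) and 7.29 against 454 CPM (-6.20). The central component C3 had 50.8 against 1191 CPM (-4.79), and the regulator Serping1 was lower as well (-6.06). C4b, and with it C4a (3.001), was the exception, with 1042 CPM in tdT-positive cells and 117 CPM in tdT-negative cells (2.91), and reads of these near copies may be shared. Pros1, the anticoagulant protein S and a ligand of MERTK and AXL, had 2434 against 939 CPM (1.13), and the receptor Mertk was higher (2.29). Gas6, the other ligand of these receptors, was lower with 15.6 against 713 CPM (-5.76) and was named after its value was seen.

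Antigen presentation and interferon response genes had members in both directions. Antigen presentation genes gave 3 higher and 1 lower of 28, with a median log2 ratio of 0.62, or 0.08 over all members. Of those 28, 23 had a ratio above 0, so the list leaned to tdT-positive cells. B2m, the shared light chain of class I molecules, had 3401 against 889.8 CPM (1.69), and the class I heavy chains H2-D1 and H2-K1 had log2 ratios of 1.74 and 1.28. These heavy chains are near-identical, so their split is uncertain. Interferon-stimulated genes gave 11 higher and 18 lower of 63, with a median above 0 (0.35, or 0.11 over all members). Scaled by library totals, the balance of that list turned to 16 higher and 13 lower, with a median of 0.60. Ifit3, Ifit1 and Ifit2, cytosolic antiviral proteins with similar sequences, had 443 against 14.5 CPM (4.69), 234 against 29.3 CPM (2.76) and 114 against 8.57 CPM (3.49). Irf9, a transcription factor of the response, was within 2-fold (0.80). The DNA sensor family of the Ifi204 type was lower, with Ifi204 at 7.68 against 103 CPM (-3.98), and so were the membrane proteins Ifitm1, with 3.70 against 233 CPM (-6.21), and Ifitm2 (-2.34).

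Several enzymes of prostaglandin synthesis were lower in tdT-positive cells. The phospholipase Pla2g4a, which frees arachidonic acid, had 25.95 against 473 CPM (-4.43) and was named after its value was seen. The cyclooxygenases Ptgs1 and Ptgs2 had 15.7 against 826 CPM (-5.95) and 62.2 against 2880.1 CPM (-5.77). The inducible prostaglandin E synthase Ptges had 4.999 against 330.3 CPM (-6.28) and the prostacyclin synthase Ptgis 3.96 against 231 CPM (-6.10). The constitutive synthases Ptges2 and Ptges3 were within 2-fold (-0.56 and 0.39), and Ptgds, the prostaglandin D synthase of glia, was higher though low, with 1.69 against 0.124 CPM (3.26).

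Other metabolic genes passed singly. Of 38 glycolysis and hypoxia genes, 3 were higher and 7 lower, not far from the 6.64% and 12.5% of all measured genes. Lactate dehydrogenase subunits differed, with Ldhb at 371 against 29.2 CPM (3.42) and Ldha at 1197 against 1979.9 CPM (-0.97). Glucose transporters differed too, with the neuronal type Slc2a3 at 123 against 20.2 CPM (2.37) and Slc2a1 at 37.4 against 184 CPM (-2.54). The lactate transporter Slc16a1 had 24.2 against 415 CPM (-4.34). Of the glutathione and redox genes 13 of 48 were lower, among them superoxide dismutase Sod2 (-2.51), extracellular Sod3 (-3.18) and Gpx3 (-5.34), while Sod1 and Cat were within 2-fold. In lipid handling, apolipoproteins Apod and Apoe, at 627 against 62.2 CPM (3.09), were higher and lipoprotein lipase, Lpl, at 4.80 against 280.0 CPM, was lower (-6.10).

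Few genes of basic cell functions passed. With this size rule, which is no test, 0 of 82 cytosolic ribosomal protein genes passed (log2 ratios -0.15 to 0.93, median 0.33, 80 above 0), nor did any of 77 mitochondrial ribosomal protein genes. Of 104 oxidative phosphorylation genes 1 was higher and 2 were lower, all 3 being tissue-specific or regulated subunits (Cox7a1, Cox4i2 and Ndufa4l2). 91 of those 104 had a ratio above 0 (median 0.35). In the cell cycle list, Ccnd1, the G1 cyclin that growth factor signals induce, had 355 CPM in tdT-positive cells and 7.62 CPM in tdT-negative cells (5.29) and was the 1 member of 55 to pass. The list as a whole had a median log2 ratio of 0.72 with 45 members above 0, and 0.96 with library totals. Ccnd2 and Ccnd3, relatives of Ccnd1, had log2 ratios of -0.88 and -0.71, against the direction of the list, and the proliferation antigen Mki67 had 73.9 against 28.8 CPM (1.12). Immediate early genes were high in both populations and similar, with Fos at 1953 and 970.1 CPM, Jun at 1073 and 1099 CPM and Egr1 at 1135 and 1619.6 CPM. Atf3, a stress-induced factor, stood apart with 625 against 29.4 CPM (4.17).

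**Figure D4:**
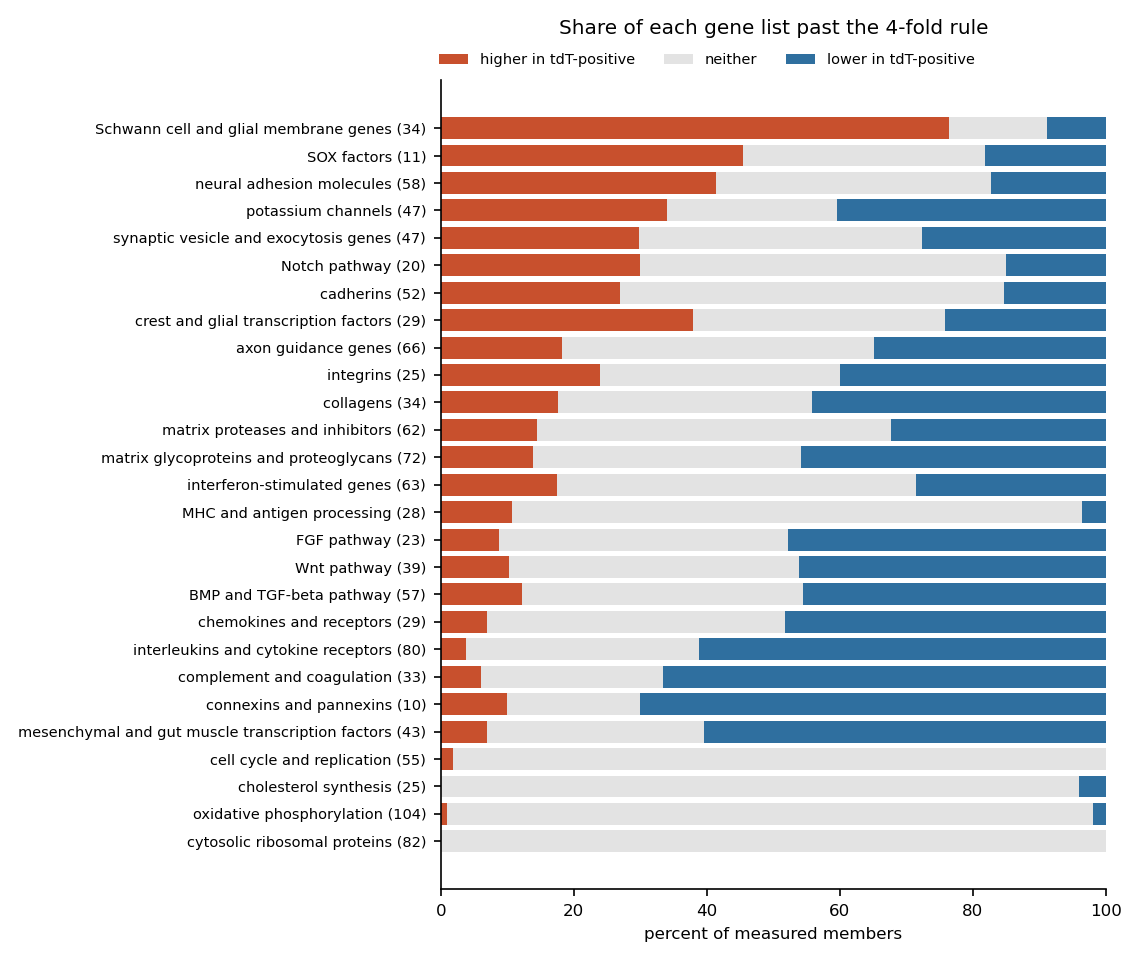
Share of the measured members of each gene list (percent, x axis; number of members in brackets) that was higher in tdT-positive cells (orange), in neither class (grey) or lower (blue). Over all measured genes 6.64% were higher and 12.5% lower, and ribosomal, oxidative phosphorylation, cholesterol and cell cycle genes show almost no call.

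Imprinted genes, expressed from 1 parental copy, were lower in 13 and higher in 6 of 36 cases. H19, the maternally expressed noncoding RNA next to Igf2, had 0.387 against 51.5 CPM (-7.18). Dlk1 and Meg3, which share another imprinted domain, had 1.70 against 67.04 CPM (-5.51) and 9.16 against 136 CPM (-4.12). Mest had 198 against 8.81 CPM (4.24), Peg10 9.56 against 0.881 CPM (3.16) and its neighbour Sgce 189.6 against 39.4 CPM (2.02). Sox2ot, the noncoding RNA that spans Sox2, was high with it, at 65.9 against 0.340 CPM (7.24). Xist, which coats the inactive X chromosome of female cells, had 73.4 CPM in tdT-positive cells and 99.5 CPM in tdT-negative cells (-0.68).

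Called genes occurred in runs along the chromosomes. Among measured genes in RefSeq order, 40 runs of 4 or more neighbours shared a call, 7 of them higher with 30 genes and 33 lower with 154 genes. How many would be found for genes in random order was not tested. The serum amyloid genes Saa3, Saa4, Saa1 and Saa2 (chr7:46711998-46754313) were all lower, with Saa4 at 0.294 against 26.5 CPM and Saa1 at 0.294 against 24.5 CPM, and Saa1 and Saa2 are near-identical copies. The interleukin 1 receptor cluster from Il1r2 to Slc9a2 (chr1:40084692-40768885) was lower in 7 consecutive genes, and the fibrinogen genes Fgg, Fga and Fgb with Lrat (chr3:82892582-83049863) in 4. In another lower run Dcn, Lum, Kera and Epyc, small leucine-rich proteoglycans (chr10:97479500-97681908), had log2 ratios of -5.74, -6.74, -4.92 and -6.04 in that order, with intervals of -9.01 to -4.05 for Kera and -10.13 to -5.21 for Epyc, which had 2 reads each in tdT-positive cells. The imprinted domain from Begain to Dio3 (chr12:109032181-110281097) was lower in 6. The higher runs held Fxyd7, Fxyd1, Lgi4 and Fxyd3 (chr7:31042515-31076697), where FXYD proteins regulate the sodium pump and Fxyd1 had 388 against 16.5 CPM (4.31). Pcdh20, Pcdh9, Klhl1 and Dach1 (chr14:88464743-98169765) formed a further run. Whether counting used strand is unknown here, so values of overlapping neighbours are uncertain.

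Called genes differed from the rest in promoter composition and in gene length. Of measured genes with 0 to 4 CG pairs in the 300-base promoter window, 12.8% were higher and 32.4% lower, against 4.47% and 6.70% of genes with 20 to 29 pairs. The median number of pairs was 16 for higher genes, 12 for lower genes and 22 for genes in neither class. Protein-coding genes over 200 kb long were called higher in 19.2% and lower in 22.3% of 734 cases, against 4.11% and 9.72% for genes of 10 to 20 kb. The median gene length was 40.03 kb for higher, 30.9 kb for lower and 23.3 kb for uncalled protein-coding genes. Of 417 measured long noncoding RNAs, 14.1% were higher and 12.9% lower, against 6.64% and 12.5% of all measured genes. These shares depend on the level of the genes as well, which was not adjusted for.

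**Figure D5:**
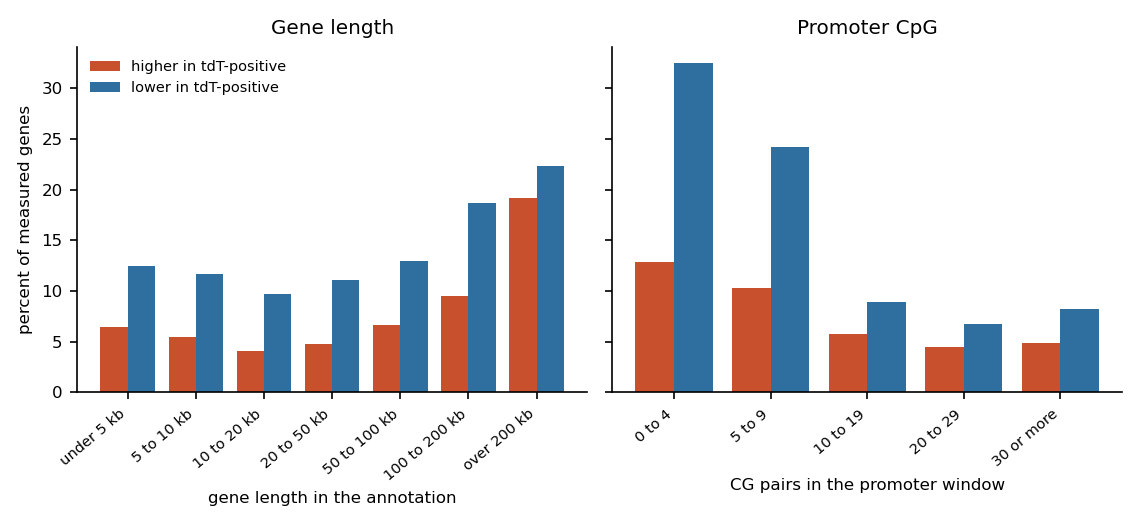
Percent of measured genes (y axis, from 0) that were higher (orange) or lower (blue) in tdT-positive cells, by gene length for protein-coding genes (left) and by the number of CG pairs in the 300-base promoter window (right). Both classes are most frequent over 200 kb and under 5 CG pairs.

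The called genes were also read in the other bowel libraries of the series sorted as tdT-positive, each a single library. The 927 higher genes, chosen on the spheroid libraries, had a median of 20.1 CPM in tdT-positive cells and 0.974 CPM in tdT-negative cells. Their median was 23.1 CPM in M2 neurospheres (tdT-positive spheroid cells grown for 10 more days), 21.6 CPM in M1 neurospheres (sorted before 10 days of culture) and 11.6 CPM in freshly sorted bowel cells. The 1737 lower genes had a median of 0.959 CPM in tdT-positive cells and 14.1 CPM in tdT-negative cells, and 0.827, 3.85 and 9.95 CPM in those M2, M1 and fresh libraries. Markers of cells outside the crest differed between these libraries as well. In fresh cells acinar enzymes summed to 83461 CPM, smooth muscle markers to 37302 CPM, macrophage markers to 5329 CPM and mesothelial markers to 1866 CPM, against 139, 286, 59.3 and 1.67 CPM in tdT-positive spheroid cells. Macrophage markers summed to 1383 CPM and mesothelial markers to 123 CPM in M1 neurospheres. Their part in the levels of called genes was not tested. Dcn had 11.04 CPM in M2 neurospheres, 144 CPM in M1 neurospheres and 2308 CPM in fresh cells, and Mmp9 had 5.53, 534 and 20.2 CPM. Ucn2, Wfdc18 and Serpina3n, all higher in tdT-positive spheroid cells, had 0, 0.329 and 33.4 CPM in fresh cells, and 43.8, 22.3 and 869.6 CPM in M2 neurospheres. These libraries differ in tissue state and culture time together, so no difference between them is assigned here.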

How the data were processed

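RNA of the sorted cells was extracted with Trizol, amplified (SMART-Seq v4) and turned into Nextera XT libraries, per the labels' protocols. The authors deposited CPM per gene for 7 libraries. The tools were HISAT, featureCounts and bcl2fastq 2.17 on build mm10, per the submitters' processing notes. Settings, annotation and strand use were not given in the sources used here. The deposited CPM were whole multiples of 1 read in 100% of values (within 0.05 read), so reads were recovered and used for counting intervals. With 1 library per group no count test could be run. Ratios are log2 ratios of TMM-scaled CPM with a prior count of 2 (edgeR 4.0.16, R 4.3.3), with scaling factors from all 7 libraries, whereas CPM in the text are as deposited. Genes entered with at least 1 CPM in either spheroid library. Other steps used Python 3.11.15 with scipy 1.17.1, pandas 2.3.3, matplotlib 3.10.9 and numpy 2.4.6. The ratio, the interval and the size rule were tested on simulated reads, and the other steps were not. Positions, types, lengths and promoters came from RefSeq GRCm38.p6, which matched 25275 of 27179 gene IDs, and IDs without a match held between 0.222% and 0.351% of a library's reads. Promoters are the first window listed for a gene and were found for 669 higher genes, 1242 lower genes and 10788 measured genes.

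Genes were named by these rules: among genes that passed the size rule, the 12 largest CPM differences in each direction and the 12 highest and 12 lowest ratios with at least 10 CPM in either library (gene models without a name left out), then about 8 members of each gene list, and members of runs of 4 or more called neighbours. Members and gene lists were chosen with earlier results of these data known. Alternatives were library totals, DESeq2 1.42.0 size factors, TMM between the 2 libraries, no filter, a 5 CPM filter, a prior count of 0.5, and size rules of 2-fold and 8-fold. RNA of the tdTomato reporter was not analysed here, and results on some genes are not reported here.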

Additional observations from a re-analysis of the deposited data

How the results depend on the processing

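The counts of 927 higher and 1737 lower genes moved by over 1.5 times with a 2-fold size rule (interval wholly beyond equality), which gave 1994 higher and 2677 lower genes. An 8-fold rule (interval wholly beyond 4-fold) gave 583 higher, past 1.5 times, and 1247 lower. Other alternatives stayed within 1.5 times: library totals gave 1084 and 1602, DESeq2 size factors 918 and 1753, TMM between the spheroid libraries 928 and 1736, no filter 1271 and 2522, a 5 CPM filter 668 and 1196, and a prior count of 0.5 gave 939 and 1745. Of all calls, 34.8% were higher in the main setting and 40.4% with library totals. No called gene changed direction in any of them, and of 77 list medians 12 changed sign in some alternative. Without a filter 42 of the 77 medians moved by over 1.5 times, and with the 5 CPM filter 26 of 76, among them neural adhesion molecules (1.66) and interferon-stimulated genes (0.55). The integrin median was 0.0142 with the 5 CPM filter in place of -1.04, because that filter tests fewer genes. No paired analysis was possible because each group is a single library, and no library could be left out for the same reason. Variation between mice, cultures and sorts is therefore unknown for every value. Both libraries come from pooled mice of both sexes. The depth makes counting error small for genes above 10 CPM in both libraries. Ratios of genes with few or 0 reads in 1 library remain wide whatever the level in the other, as for Wfdc18 and Gpr83.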

Other observations

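Of the called genes, 306 of 927 higher genes (33.0%) and 601 of 1737 lower genes (34.6%) belonged to a gene list used above. At most 2202 of the 13951 measured genes did, so called genes were in a list more often than measured genes as a whole. The lists were chosen with earlier results of these data known. The genes named in this paragraph were chosen after their values were seen. Shc4, an adaptor of receptor tyrosine kinases known from melanoma, had 579 CPM in tdT-positive cells and 9.11 CPM in tdT-negative cells (log2 ratio 5.74). Zfp536, a zinc finger repressor of neuronal differentiation, had 339 against 1.21 CPM (7.86), and C1ql1, a secreted ligand at synapses, 442 against 3.06 CPM (6.92). On the other side, Ace, the angiotensin-converting enzyme, had 2.89 against 325 CPM (-7.04), Star, which moves cholesterol into mitochondria for steroid synthesis, 19.6 against 531 CPM (-4.998), and Xdh, xanthine dehydrogenase, 12.2 against 809 CPM (-6.29). Steroid enzymes of that side included Hsd11b1, which regenerates active glucocorticoid, with 5.25 against 304 CPM (-6.09).

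Neuropeptide genes passed in both directions, with 6 higher and 4 lower of 16. Vip, the vasoactive intestinal peptide of inhibitory enteric neurons, had 8.71 CPM in tdT-positive cells and 0.0155 CPM in tdT-negative cells (7.41, interval 6.41 to 14.20). Cartpt, a peptide of enteric and brain neurons, had 2.99 CPM in tdT-positive cells and 0 reads in tdT-negative cells, at least 54.4-fold higher. Tac1, the precursor of substance P, had 1.11 against 4.27 CPM (-2.15), and Npy was level with 5.22 and 3.77 CPM (0.22). The neurexophilin Nxph1 had 0 reads in tdT-positive cells and 4.45 CPM in tdT-negative cells, at least 113-fold lower.

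Gene families taken by symbol ranged from no call to many. Over all measured genes 6.64% were higher and 12.5% lower. Among zinc finger genes of the Zfp series, 6 were higher and 11 lower of 358 (1.68% and 3.07%). Among solute carriers 21 were higher and 47 lower of 240 (8.75% and 19.6%). The Arhgef genes, which code for guanine nucleotide exchange factors of small GTPases, gave 7 higher and 3 lower of 23. Abca lipid transporters gave 0 higher and 6 lower of 10, and Tnfrsf receptors 0 higher and 7 lower of 14. The Usp, Ube, Ddx and Polr families, of 45, 38, 35 and 28 measured genes, had no call under the size rule.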
